A study of Homo sapiens with 6 samples.

Results

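The nuclear genes of oxidative phosphorylation were described in LX-2, a human cell line made from hepatic stellate cells, which are the main collagen-producing cells of the injured liver. The genes were those with the KEGG entry 00190 (oxidative phosphorylation) in the annotation of the deposited table, without those on the mitochondrial chromosome and without the vacuolar ATPase genes (ATP6V, ATP6AP and TCIRG1). This left 92 of the 33900 genes. The rule itself used no expression value, but it was chosen with earlier results of these data known. By symbol they fell into 40 NDUF genes counted as complex I, 4 SDH genes of complex II and 10 genes of complex III (UQCR and CYC1). There were 15 genes of complex IV (COX) and 15 genes of complex V (ATP5). The rest were 4 COX genes for the assembly of complex IV (COX10, COX11, COX15 and COX17) and 4 other genes (ATP12A, LHPP, PPA1 and PPA2). This grouping goes by symbol alone and does not show which complex a protein belongs to, NDUFA4 and NDUFA4L2 included.

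Oxidative phosphorylation takes place in the inner mitochondrial membrane. Complexes I and II pass electrons from NADH and succinate to ubiquinone, complex III passes them on to cytochrome c, and complex IV passes them to oxygen. Complexes I, III and IV pump protons, and complex V, the ATP synthase, uses the proton gradient to make ATP. Complex II is built from nuclear genes alone, while the other complexes also hold subunits made from mitochondrial DNA, so their RNAs come from both genomes. Activated stellate cells are known for high energy demand, in which both glycolysis and respiration take part.

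Wild-type LX-2 cells were treated with recombinant human Sema3C (rhSema3C), a secreted semaphorin, at 300 ng/ml, or with PBS, for 48 h. There were 3 samples in each group, labelled as biological replicates of a single line, and the labels do not say whether they were separate cultures, so the p-values measure the spread between these samples. RNA was sequenced from libraries made with a kit for mRNA. The comparison asks which of these genes differ in RNA level between rhSema3C and PBS, and because RNA was taken in bulk, fewer cells of a kind and less RNA per cell cannot be told apart.

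The totals were 68267808 to 89245585 counts a sample. Stellate and mesenchymal markers were abundant, with a mean FPKM (fragments scaled to gene length and library size) of 935 for VIM, 207 for TIMP1 and 78.0 for COL1A1, whereas COL1A2 and DES were close to absent at 0.109 and 0.0252. Of the 10 markers in that list 8 were tested, 1 was higher and 6 were lower with rhSema3C, and their summed FPKM was 1504 to 1557 in PBS and 1209 to 1275 in rhSema3C samples. The gene that rose was LOX (log2 fold change 1.05), and COL1A1 (-0.78) and ACTA2 (-0.56) were among those that fell. Several markers of other cell types were near 0, with FPKM of at most 0.0310 for ALB, 0.0408 for CDH1, 0.0469 for EPCAM, 0.0865 for PECAM1 and 0.0143 for PTPRC. Other genes of the same lists were not, with a mean FPKM of 80.2 for CD68, 3.79 for CD14, 3.32 for SERPINA1 and 3.08 for KRT7. Of the hepatocyte list 1 of 8 genes was tested, SERPINA1, which was higher (0.37), with a summed FPKM of 2.68 to 3.18 in PBS and 3.52 to 4.18 in rhSema3C. Of the leukocyte and macrophage list 2 of 5 were tested and both were lower, CD14 (-0.81) and CD68 (-0.58), with a summed FPKM of 95.03 to 104 in PBS and 67.2 to 73.0 in rhSema3C. The epithelial list (summed FPKM 2.37 to 3.92 in PBS and 3.20 to 3.68 in rhSema3C) and the endothelial list (0.797 to 1.05 and 1.26 to 1.67) each held 1 tested gene that did not pass, KRT7 (0.02) and KDR (-0.10). In the endothelial list VWF was too low to test, with 0.0914, 0.0902 and 0.120 FPKM in PBS and 0.677, 0.542 and 0.760 in rhSema3C samples. The part of these cell type markers in the results below was not tested.

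Among the transcription factors known to bind promoters of respiratory genes are NRF1, the ETS factor GABP, and YY1. RefSeq promoters on GRCh38.p14, from 250 bases before to 50 bases after a start site, were at hand for 73 of the 92 genes, as 88 promoters. The NRF1 letters (GCGC, then any base, then TGCGC) stood on either strand in 19.3% of these 88 promoters and in 5.78% of all 35116 promoters, the ETS letters CCGGAAG in 28.4% and 10.3%, and the YY1 letters AANATGGCG in 22.7% and 3.19%. Genes that rose and genes that fell both carried them. The NRF1 letters were found for 7 of 34 lower genes, 3 of 16 higher genes and 6 of 19 genes not called, the ETS letters for 12, 6 and 5 of the same 34, 16 and 19 genes, and the YY1 letters for 10, 4 and 4. No matches of these 3 motifs overlapped in the 88 promoters. More general promoter letters also differed in share. The SP1 letters GGGCGG stood in 62.5% of the 88 promoters and 45.0% of all 35116, and the TATA letters TATAAA in 7.95% and 11.5%. The stretches below lie before the start site and outside the gene's own span in the table. They are shown because a gene that fell and a gene that rose carry the same letters, with the match in capitals and each read 5′ to 3′ on the gene's strand. The first 4 hold the NRF1 letters or their reverse complement, in NDUFA11, UQCRFS1 and SDHA, which fell, and SDHD, which rose. The last 4 hold the ETS letters or their reverse complement, in COX6B1 and COX8A, which fell, and SDHB and NDUFS1, which rose. These directions are those of the main fit. As described below, SDHA did not pass with TPM scaling. After removal of the GC and length trend SDHD passed as lower (-0.16) and NDUFS1 (-0.08) did not pass.
NDUFA11, chr19:5903859-5903908 (minus strand): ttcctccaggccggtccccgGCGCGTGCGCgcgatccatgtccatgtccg
UQCRFS1, chr19:29213153-29213202 (minus strand): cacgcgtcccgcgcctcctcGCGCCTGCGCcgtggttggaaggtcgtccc
SDHA, chr5:218134-218183 (plus strand): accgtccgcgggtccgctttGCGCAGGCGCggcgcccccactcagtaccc
SDHD, chr11:112086743-112086792 (plus strand): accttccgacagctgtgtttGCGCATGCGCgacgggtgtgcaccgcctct
COX6B1, chr19:35648291-35648322 (plus strand): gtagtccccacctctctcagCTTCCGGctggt
COX8A, chr11:63974582-63974619 (plus strand): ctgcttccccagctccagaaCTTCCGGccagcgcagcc
SDHB, chr1:17054134-17054180 (minus strand): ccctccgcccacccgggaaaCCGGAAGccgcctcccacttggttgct
NDUFS1, chr2:206159575-206159621 (minus strand): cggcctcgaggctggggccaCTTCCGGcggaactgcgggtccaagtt

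With rhSema3C, more nuclear oxidative phosphorylation genes were lower than higher under TMM scaling, whereas with limma on log2(TPM + 0.1), where TPM rescales FPKM to an equal sum per sample, 34 were higher and 21 lower. The falls under both scalings included the catalytic β subunit of the ATP synthase, the c subunit of its rotor, cytochrome c1 and the Rieske protein of complex III. With TMM, of the 86 genes tested, 42 were lower and 21 were higher at an edgeR adjusted p below 0.05, and 23 did not pass. That is 48.8% lower and 24.4% higher, where the background over all 14178 genes tested was 30.6% lower and 31.7% higher. The median log2 fold change was -0.18 over the 86 genes and 0.02 over all genes tested. The direction of that median depended on the scaling between samples: it was -0.19 with median-of-ratios factors, -0.07 with library size alone and 0.05 with TPM, where the median of all genes was 0.25. The difference between the median of these genes and that of all genes was -0.20 with TMM, median-of-ratios, library size alone and TPM. Such scalings shift all genes of a sample by nearly the same amount, so this agreement is no separate test. Where the set of genes or the trend changed, the difference moved. It was -0.11 with the filter raised to 5 FPKM and -0.24 without any filter. With each library's trend on GC content and length removed it was -0.15. Of the 42 lower genes 21 were also lower, and of the 21 higher genes 18 were also higher, at an adjusted p below 0.05 under each of the 6 other scalings. The 21 lower genes that did not pass as lower with TPM included SDHA, NDUFS7, NDUFV1, NDUFC2, COX4I1, COX5A, COX5B, COX6A1, ATP5F1A and ATP5MG. The changes were small. Only 1 gene was higher and 2 were lower by a fold change above 2 with a p below 0.05, beside 3.42% and 2.12% of all genes tested. In 67 of the 86 genes (77.9%) the 3 rhSema3C samples did not overlap with the 3 PBS samples in CPM (counts scaled to the TMM-adjusted library size), beside 67.8% of all genes tested.

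**Figure D1:**
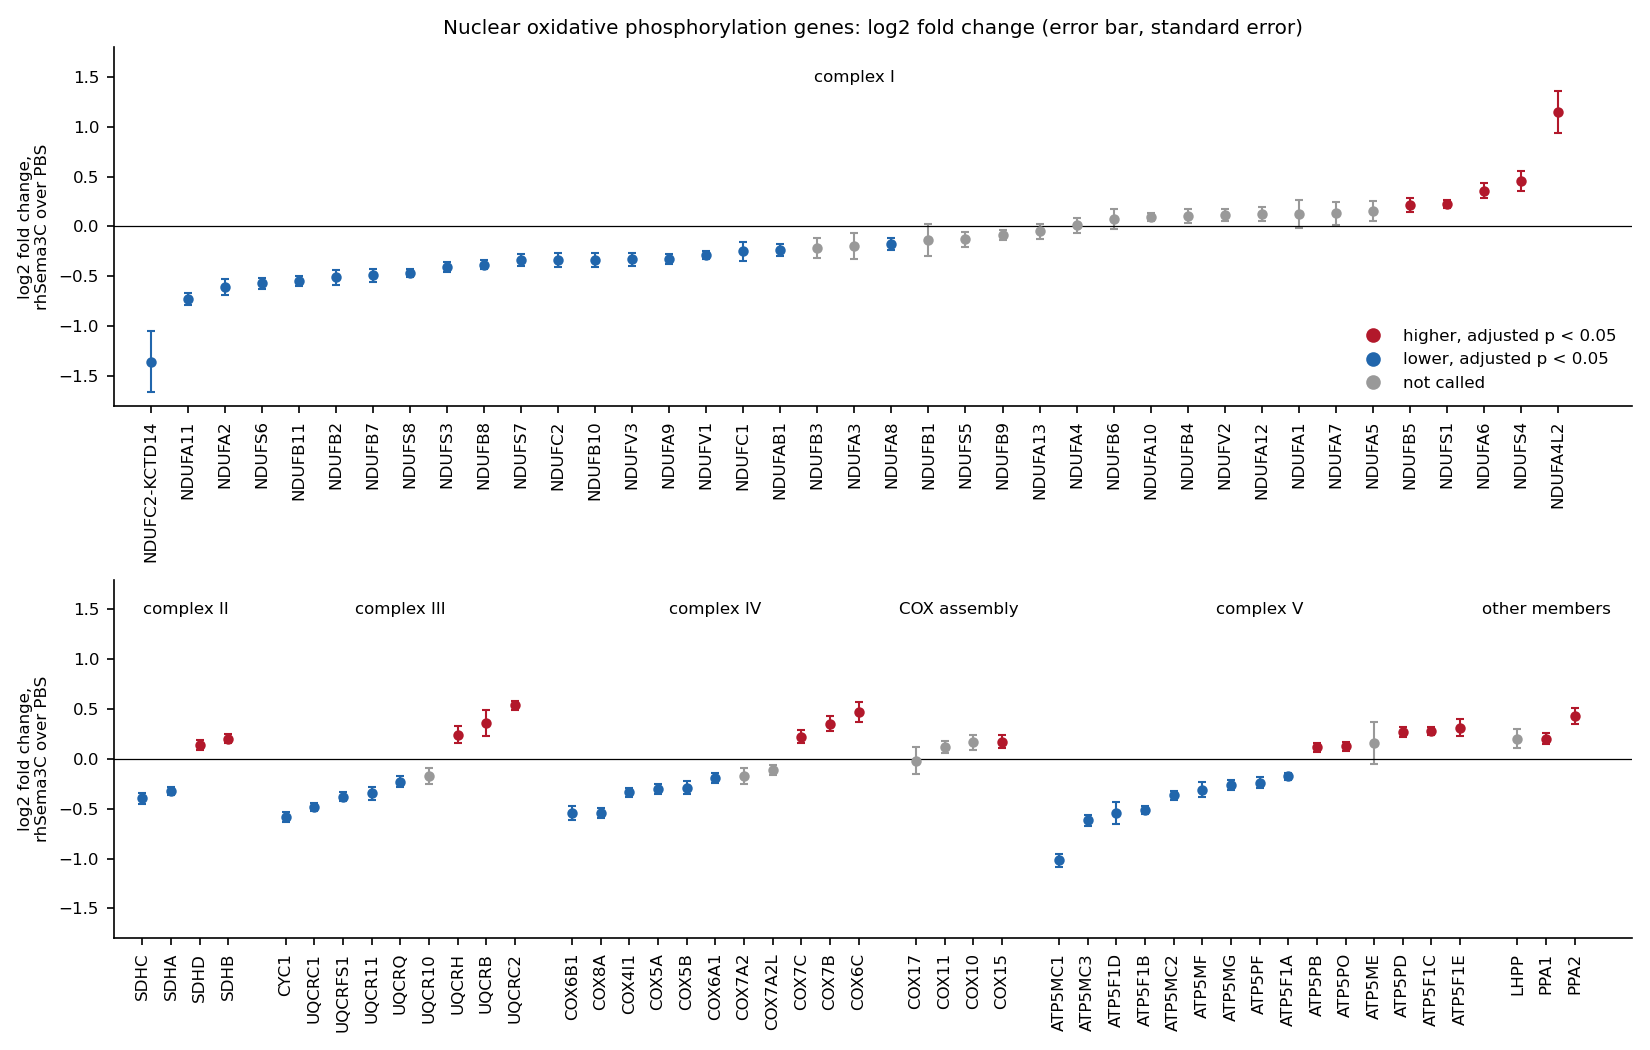
Log2 fold change of rhSema3C over PBS (y axis) for 85 of the 86 genes tested, grouped by complex and ordered by value, with the standard error from edgeR as error bar. Blue points are lower and red points higher at an adjusted p below 0.05, grey points did not pass, and most values lie between -0.7 and 0.5.

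The summed CPM of the 86 genes was 7662, 7621 and 7648 in the PBS samples and 6394, 6583 and 6529 in the rhSema3C samples. The groups did not overlap, and the mean fell from 7644 ± 20.8 to 6502 ± 97.3 (SD, n = 3), a difference of -14.9%. As a share of all counts, with no TMM scaling, the 92 genes made up 0.735%, 0.727% and 0.737% in the PBS samples and 0.658%, 0.680% and 0.677% in the rhSema3C samples. The sums of the 5 complexes were all lower, by -13.7% for complex I, -15.3% for complex II, -17.6% for complex III, -15.4% for complex IV and -17.5% for complex V. The 4 COX assembly genes summed to 9.76% more with rhSema3C. Sums weigh the abundant genes most.

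**Figure D2:**
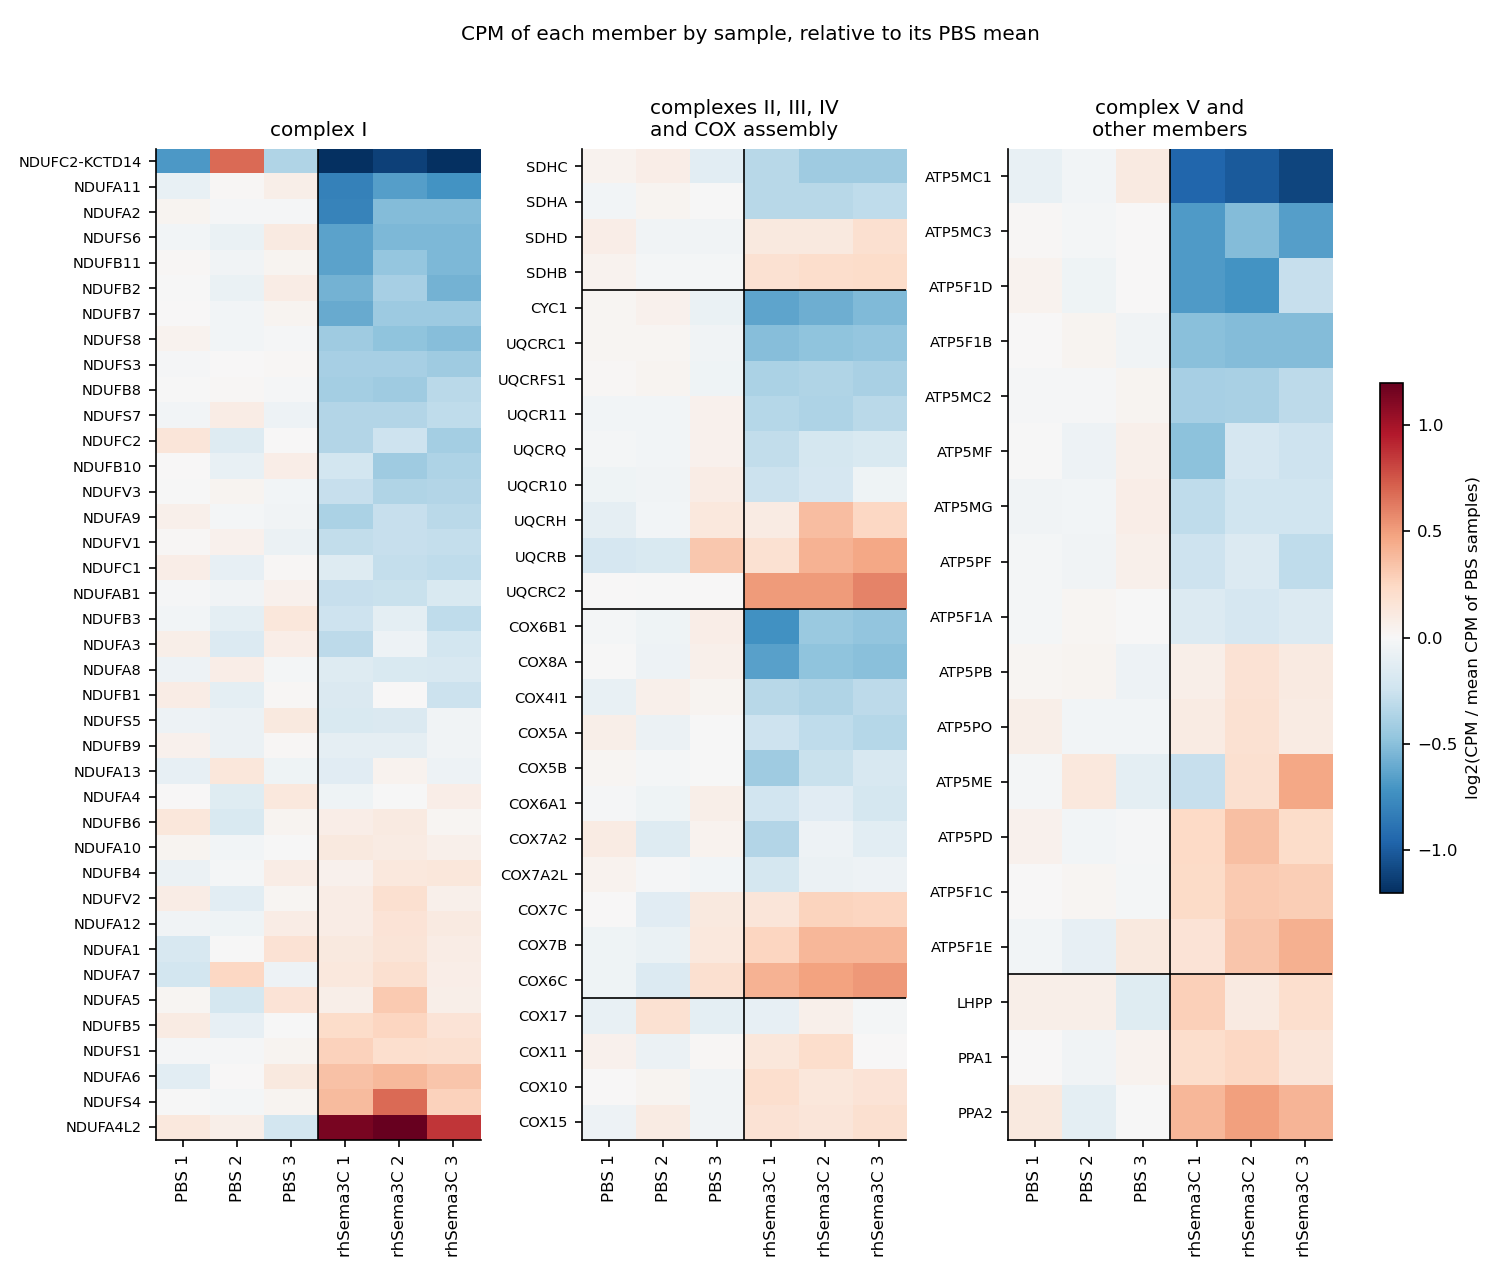
Level of 85 of the 86 genes tested (rows) in each of the 6 samples (columns), as log2 of CPM over the mean CPM of the 3 PBS samples, with horizontal lines between complexes. Rows run from lower (blue) to higher (red) within a complex, and NDUFC2-KCTD14 and UQCRB vary visibly among the PBS samples.

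GC content moved with these differences. Across the 86 genes, the Pearson correlation of log2 fold change with the GC content of the longest transcript was -0.38 and Spearman's rho was -0.48, and across 14096 genes they were -0.39 and -0.48, as a description over genes that share the same libraries. The 43 genes above the median GC content of 47.7% held 31 lower and 4 higher genes, and the other 43 held 11 lower and 17 higher genes. Over all genes the median log2 fold change ran from 0.33 in the tenth of genes with the lowest GC content to -0.30 in the tenth with the highest. With each library's trend on GC content and length removed, 35 of the 42 lower genes and 7 of the 21 higher genes still passed in the same direction, and the median of the 86 genes was -0.18. The part of GC content in the differences was not tested.

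**Figure D3:**
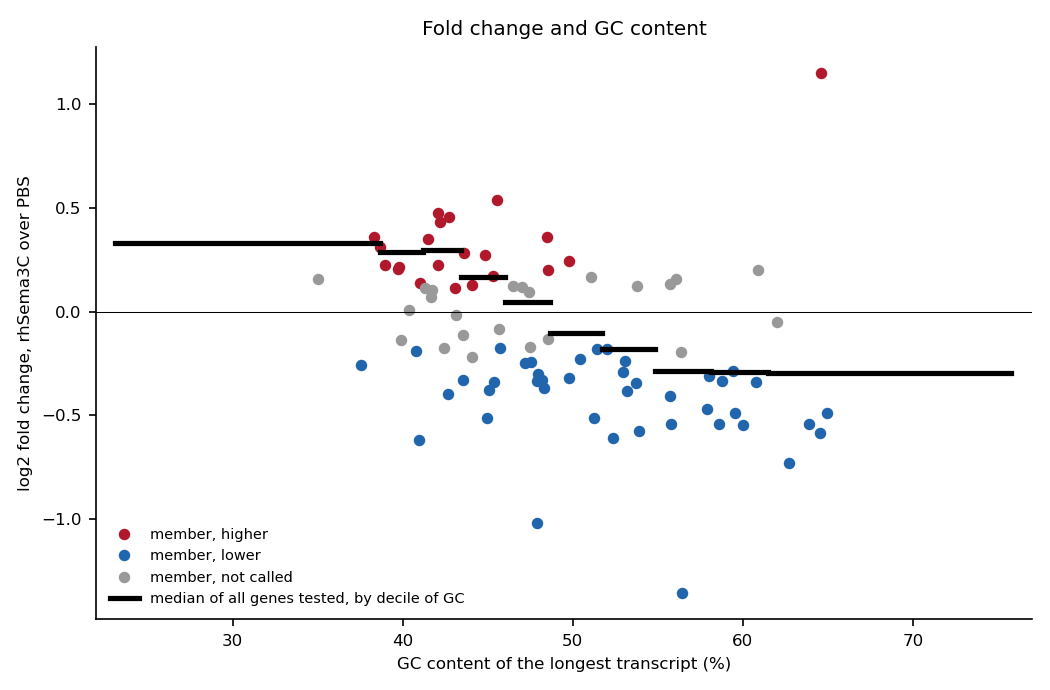
Log2 fold change of rhSema3C over PBS (y axis) against the GC content of the longest transcript in percent (x axis). Points are the 86 genes, coloured by call, and black bars are medians of all genes tested in 10 groups of equal size by GC content, which fall from 0.33 to -0.30.

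Complex I is the entry point for electrons from NADH. Of the 40 NDUF genes counted under it, all tested, 20 were lower, 5 were higher and 15 did not pass, and the median was -0.19. The 7 nuclear core subunits, which hold the flavin and the iron-sulphur clusters, included 5 lower genes and 1 higher gene, with a median of -0.29. The 33 others, the supernumerary subunits and their relatives, included 15 lower and 4 higher genes, with a median of -0.18. NDUFS8, which carries iron-sulphur clusters, had 139, 132 and 133 CPM in the PBS samples and 100.5, 96.5 and 94.8 in the rhSema3C samples (log2 fold change -0.47, standard error 0.04, adjusted p = 2.70e-06). The groups did not overlap. NDUFS3 (-0.41), NDUFS7 (-0.34) and NDUFV1 (-0.29), which binds NADH, also fell, although NDUFS7 (-0.11) and NDUFV1 (-0.06) did not pass with TPM. After removal of the GC and length trend NDUFS7 (-0.08) and NDUFV1 (-0.02) no longer passed. NDUFV2 did not pass (0.12) and turned to -0.18 after that removal, with an adjusted p of 0.00371. NDUFS1, the largest core subunit, was the exception and rose, with 139, 138 and 143 CPM in PBS and 169.8, 161 and 161 in rhSema3C samples (0.23, standard error 0.04, adjusted p = 0.000567), although it was -0.08 and did not pass after that removal.

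The supernumerary subunits surround the core and are needed for its assembly and stability. NDUFA11, a subunit of the membrane arm, fell most among those with ample counts, from 90.5, 96.9 and 101 CPM in the PBS samples to 54.7, 60.8 and 58.3 in the rhSema3C samples (-0.73, standard error 0.06, adjusted p = 8.84e-07). NDUFA2, a subunit of the matrix arm, had 43.8, 42.4 and 42.4 CPM in PBS and 24.6, 29.8 and 29.9 in rhSema3C (-0.61). Its span overlaps TMCO6 and IK on the other strand, which together held 446% of its counts. In both genes every rhSema3C sample was below every PBS sample. Upward, NDUFA6 rose from 26.1, 28.7 and 30.97 to 36.4, 37.5 and 36.1 CPM (0.36, adjusted p = 0.00128), and NDUFS4, a matrix arm subunit needed for a stable complex, from 17.9, 17.7 and 18.4 to 23.4, 28.7 and 21.7 (0.46, adjusted p = 0.00238). NDUFA6 kept its call in all 19 alternatives, whereas NDUFS4 was at 0.17 and did not pass after removal of the GC and length trend.

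The 2 largest fold changes of the NDUF genes belonged to genes whose spans overlap those of other genes and whose counts may hold their reads. NDUFA4L2 (chr12:57234903-57240703, minus strand), a paralog of NDUFA4 known for its induction in hypoxia, had 1.66, 1.59 and 1.31 CPM in PBS and 3.35, 4.02 and 2.76 in rhSema3C samples (1.15, standard error 0.21, adjusted p = 0.000582). The groups did not overlap. Its span overlaps that of SHMT2 on the plus strand, which held 21359% of its counts and itself rose from 398, 389 and 371 to 682, 663 and 684 CPM (0.81), and whether the counting used strand is not given in the sources used here. The part of SHMT2 reads in the value of NDUFA4L2 was not tested. NDUFC2-KCTD14 (chr11:78016971-78079865, minus strand), a readthrough of 2 neighbouring genes, had 4.62, 11.9 and 5.79 CPM in PBS and 2.42, 3.42 and 2.85 in rhSema3C samples (-1.36, standard error 0.30, adjusted p = 0.00235). PBS replicate 2 stood apart from the others, and without it the value was -0.84. NDUFC2 itself fell by less (-0.34, and -0.11 with TPM, where it did not pass), and so did KCTD14 (-0.31), and the counts of both overlapped spans cannot be told apart from the readthrough.

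Complex II, which links the citric acid cycle to the respiratory chain, was split. SDHA, the flavoprotein that oxidises succinate, had 460.2, 480.4 and 468 CPM in the PBS samples and 374, 373 and 380.0 in the rhSema3C samples (-0.32, standard error 0.04, adjusted p = 2.54e-05). SDHC, a membrane anchor, had 162, 165 and 144 and 124, 117 and 117 (-0.39, standard error 0.06, adjusted p = 8.30e-05). Both fell and neither overlapped between groups, although SDHA was at -0.09 and did not pass with TPM (adjusted p = 0.0641), where SDHC passed at -0.17. SDHB, the iron-sulphur subunit, rose from 68.8, 65.8 and 65.9 to 75.7, 77.5 and 77.6 CPM (0.20, standard error 0.04, adjusted p = 0.00206). The other anchor, SDHD, had 61.7, 56.9 and 57.05 CPM in PBS and 63.4, 63.5 and 66.8 in rhSema3C (0.14, adjusted p = 0.0352), a small rise that lost its call without PBS replicate 2 or 3 or rhSema3C replicate 1 or 3. After removal of the GC and length trend SDHD was at -0.16 and passed as lower (adjusted p = 0.0176). Named pseudogenes held 6.27% as many counts as SDHA and 2.03% as many as SDHD.

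Complex III held 5 lower and 3 higher genes of 9 tested, with a median of -0.23. The subunits that carry electrons fell. CYC1, cytochrome c1, had 113, 116 and 106 CPM in PBS and 71.8, 74.2 and 77.1 in rhSema3C samples (-0.58, standard error 0.05, adjusted p = 1.67e-06). UQCRFS1, the Rieske iron-sulphur protein, had 108, 109 and 103 and 81.8, 82.7 and 81.4 (-0.38, standard error 0.04, adjusted p = 1.40e-05). The 2 core proteins, which form a pair on the matrix side and carry no electrons, moved apart. UQCRC1 fell from 428, 429 and 409.6 to 296, 302 and 307 CPM (-0.49, adjusted p = 1.47e-06), while UQCRC2 rose from 69.8, 69.4 and 70.2 to 99.2, 99.6 and 105 (0.54, standard error 0.04, adjusted p = 1.19e-06). The groups did not overlap for any of these 4 genes, and each kept its call in all 19 alternatives. Of the small subunits, UQCRH (0.24) and UQCRB (0.36) rose with overlapping groups. UQCRB, which binds ubiquinone, had 21.4, 21.6 and 30.7 CPM in PBS and 27.8, 32.7 and 33.9 in rhSema3C samples, so that PBS replicate 3 was above rhSema3C replicate 1, and its value was 0.55 without PBS replicate 3. Both lost their call without PBS replicate 1 or 2 or rhSema3C replicate 2 or 3, with adjusted p of 0.0555 to 0.127, and UQCRB was at -0.01 after removal of the GC and length trend and did not pass. UQCRHL, a copy of UQCRH, was too low to test, with 52 to 62 counts in PBS and 80 to 99 in rhSema3C samples.

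**Figure D4:**
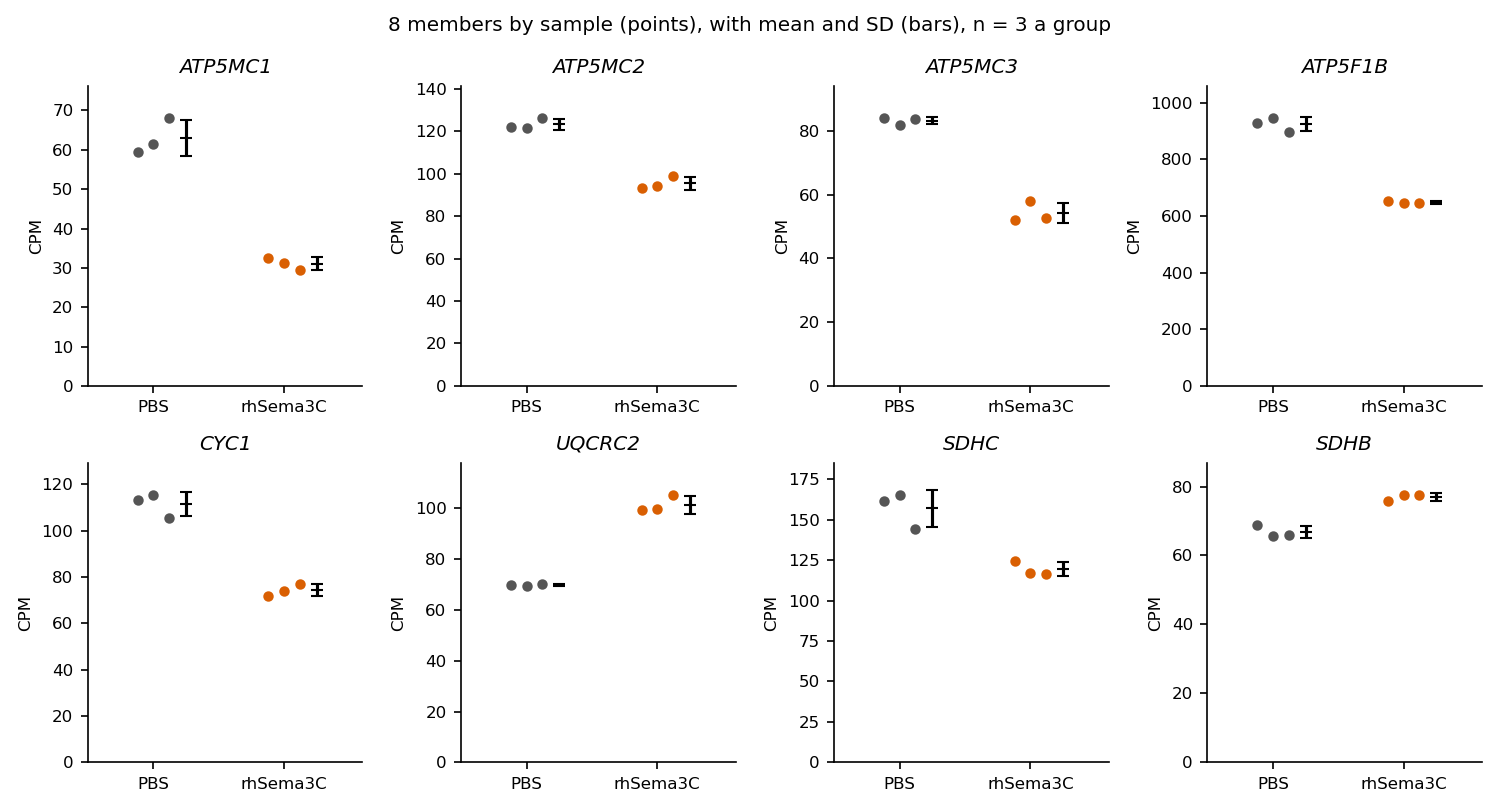
CPM of 8 genes (y axes from 0) in the 3 PBS and 3 rhSema3C samples, with points for samples and bars for mean and SD. UQCRC2 and SDHB are higher with rhSema3C, while ATP5MC1, ATP5MC2, ATP5MC3, ATP5F1B, CYC1 and SDHC are lower, and no groups overlap.

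Complex IV, the oxidase that reduces oxygen, held 6 lower and 3 higher genes of 11 tested, with a median of -0.19. COX6B1, a subunit on the side of the intermembrane space, had 70.6, 69.3 and 75.8 CPM in PBS and 43.3, 52.9 and 51.7 in rhSema3C samples (-0.54, standard error 0.07, adjusted p = 7.09e-05). COX8A, a short membrane subunit, had 180.3, 174 and 189 and 115, 129 and 128 (-0.54, standard error 0.05, adjusted p = 5.31e-06). Both fell, with no overlap between groups. COX4I1 (-0.34), which binds ATP and tunes the enzyme, COX5A (-0.30) and COX5B (-0.29) fell as well, and so did COX6A1 (-0.19). With TPM these 4 did not pass, at -0.11, -0.07, -0.07 and 0.04. COX6C rose from 15.1, 13.95 and 17.9 to 20.9, 21.9 and 22.5 CPM (0.47, standard error 0.10, adjusted p = 0.00159), COX7B from 26.3, 25.7 and 29.7 to 32.5, 35.99 and 35.8 (0.35) and COX7C from 51.2, 46.5 and 55.5 to 56.3, 61.6 and 61.00 (0.22). After removal of the GC and length trend these 3 were at 0.20, 0.07 and -0.12 and none passed, and COX7C also lost its call without PBS replicate 2 (0.16). COX7A2 (-0.17) and COX7A2L (-0.11), a relative that joins complexes III and IV, did not pass, and after removal of the GC and length trend both passed as lower, at -0.45 and -0.33. The tissue forms COX7A1, COX7B2 and COX8C had at most 4 counts in any sample and COX6B2 had 12 to 72, so none was tested.

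The 4 COX assembly genes did not share the falls, with 1 higher, 3 that did not pass and a median of 0.14. COX15, which makes heme A, was higher (0.17, adjusted p = 0.0371) and lost its call without PBS replicate 1 or 3 or rhSema3C replicate 1 or 3, and after removal of the GC and length trend it was at 0.03 and did not pass. COX10, which acts one step before it, had 18.1, 18.4 and 17.6 CPM in PBS and 20.8, 19.8 and 20.2 in rhSema3C (0.17, adjusted p = 0.074), and passed as higher after that removal, at 0.26. Among the other genes, the pyrophosphatases PPA2 (0.43), of mitochondria, and PPA1 (0.20), of the cytosol, rose, although PPA1 was at -0.11 after removal of the GC and length trend and did not pass, and LHPP did not pass (0.20) but passed after that removal, at 0.48. ATP12A, a proton pump of the plasma membrane, had 0 counts in 5 samples and 13 in rhSema3C replicate 2.

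Complex V held 9 lower and 5 higher genes of 15 tested, with a median of -0.24. ATP5F1B, the catalytic β subunit and the most abundant of the 92 genes per length (387 FPKM in PBS), had 928, 945 and 898 CPM in the PBS samples and 652, 645 and 645 in the rhSema3C samples (-0.51, standard error 0.04, adjusted p = 6.76e-07). The groups were far apart relative to their spread. ATP5F1A, the α subunit that stands beside it in the same ring, had 454, 469 and 460.1 and 411, 402 and 412 (-0.18, standard error 0.04, adjusted p = 0.00182), a smaller fall that was at 0.05 and did not pass with TPM. ATP5F1D, the δ subunit of the stalk, had 34.6, 32.5 and 33.7 CPM in PBS and 21.00, 20.5 and 27.8 in rhSema3C (-0.54, adjusted p = 0.000998), with rhSema3C replicate 3 nearer to the PBS samples than the others. The 2 other subunits of the stalk rose, ATP5F1C (γ) from 77.5, 78.1 and 75.6 to 90.5, 96.03 and 94.4 CPM (0.28, adjusted p = 0.000175) and ATP5F1E (ε) from 26.7, 25.5 and 29.6 to 30.6, 34.4 and 36.5 (0.31, adjusted p = 0.00713). After removal of the GC and length trend they were at 0.05 and -0.01 and did not pass. ATP5PD (0.27), of the outer stalk, rose, and ATP5MG (-0.26), of the membrane part, fell but did not pass with TPM (-0.03).

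The c subunit, which forms the rotating ring in the membrane, is made from 3 genes whose mature proteins are the same. All 3 fell, by unequal amounts. ATP5MC1 (chr17:48892765-48895871, plus strand) had 59.4, 61.4 and 68.1 CPM in PBS and 32.6, 31.3 and 29.4 in rhSema3C samples (-1.02, standard error 0.07, adjusted p = 3.18e-07), or 0.494 times the PBS level. ATP5MC3 (chr2:175176258-175184607, minus strand) had 83.97, 81.9 and 83.6 and 51.99, 57.9 and 52.7 (-0.62, standard error 0.05, adjusted p = 1.83e-06). ATP5MC2 (chr12:53632726-53676728, minus strand) had 122, 122 and 126 and 93.4, 94.4 and 99.1 (-0.37, standard error 0.04, adjusted p = 1.83e-05). None of the 3 overlapped between groups, and each kept its call in all 19 alternatives. Per length, ATP5MC2 was the highest of the 3 in both groups, with 29.6 ± 0.729 FPKM in PBS and 24.7 ± 0.862 in rhSema3C (SD, n = 3), followed by ATP5MC1 with 22.6 ± 1.7 and 11.95 ± 0.594 and ATP5MC3 with 11.5 ± 0.210 and 8.05 ± 0.480.

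A ratio of 2 genes within a sample does not depend on the scaling between samples. Of 13 pairs of related genes, 6 had both genes high enough to compare. The log2 ratio of ATP5MC1 to ATP5MC2 in FPKM was -0.46, -0.41 and -0.31 in PBS and -0.94, -1.01 and -1.18 in rhSema3C samples. The groups did not overlap, and the mean differed by -0.65 (exact two-sided permutation p = 0.1, the smallest that 3 against 3 allows, and 0.12 adjusted over the 6 pairs). The log2 ratios of ATP5MC1 to ATP5MC3 (-0.40), ATP5MC2 to ATP5MC3 (0.25), NDUFA4L2 to NDUFA4 (1.15) and NDUFC2-KCTD14 to NDUFC2 (-0.92) also differed with no overlap and the same exact p of 0.1. The last of these rested largely on PBS replicate 2, since its log2 ratios in PBS were -3.49, -1.83 and -3.02, and the difference was -0.44 without that sample, a value computed after the data were seen. With 1 added to both FPKM values the NDUFA4L2 to NDUFA4 ratio differed by 0.45. NDUFA4 itself had 34.7, 31.2 and 37.8 CPM in PBS and 33.4, 34.5 and 36.5 in rhSema3C (0.01, not called). The ratio of COX7A2L to COX7A2 differed by 0.06 with overlapping groups (exact p = 0.6). The design cannot reach a p below 0.05 for a ratio.

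The 21 core subunits of all complexes, from a list of catalytic, redox and structural subunits that includes UQCRC1, UQCRC2, COX4I1, COX5A and COX5B, held 15 lower genes, 5 higher genes (NDUFS1, SDHB, SDHD, UQCRC2 and ATP5F1C) and 1 that did not pass, with a median of -0.30 under TMM. Each of the 5 complexes held genes in both directions. The 13 mRNAs of the mitochondrial genome were all lower, including 7 of complex I with a median of -0.69, MT-CYB of complex III at -1.03, 3 of complex IV with a median of -0.71 and 2 of complex V with a median of -1.28. Set beside them, the nuclear medians of complexes I, III, IV and V lay between -0.24 and -0.19.

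The lists of neighbouring pathways were read the same way, against the background of 30.6% lower and 31.7% higher. Of 16 assembly factors of complex I, 7 were higher and 4 lower, with a median of 0.04. The methyltransferase NDUFAF7 (0.53) and NDUFAF2 (0.45) rose most and ACAD9 (-0.51) and FOXRED1 (-0.35) fell most. Of 28 assembly factors of complexes II to V, 6 were higher and 10 lower, with a median of -0.14. SDHAF4 (0.84) and COA5 (0.65) rose, while SCO2 (-0.79), a copper chaperone of complex IV, and SDHAF2 (-0.74), which attaches the flavin to SDHA, fell.

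The 17 enzymes of the citric acid cycle and pyruvate dehydrogenase included 3 higher and 8 lower genes, with a median of -0.05, of which OGDH (-0.58) and IDH3B (-0.50) fell most and SUCLG2 (0.69) and FH (0.34) rose most. Of 16 tested regulators of mitochondrial gene expression, 5 were higher and 5 lower, with a median of -0.13. TFB1M, which methylates mitochondrial ribosomal RNA, rose from 10.5, 10.5 and 9.78 to 26.1, 28.6 and 27.6 CPM (1.42, standard error 0.08), and MTERF3 rose (0.75), while the helicase TWNK (-0.45) and the nuclear receptor ESRRA (-0.33) fell. Of the factors whose motifs are described above, NRF1 fell, just past the threshold (-0.21, adjusted p = 0.0479). Of the genes of GABP, GABPB1 rose (0.43, adjusted p = 0.000343) and GABPA did not pass (0.21, adjusted p = 0.181). YY1 did not pass either (-0.10, adjusted p = 0.130). The values of these factors are from TMM scaling alone. GABPB1 has a GC content of 39.0%, and the tenth of all genes tested with a GC content of 38.7% to 41.2% had a median of 0.29. Of 16 tested carriers and coupling genes, 2 were higher and 6 lower, with a median of -0.10. The calcium channel MCU (0.54) and cytochrome c, CYCS (0.17), rose, the latter being at -0.11 and not passing after removal of the GC and length trend, and the ADP/ATP carrier SLC25A4 (-0.70) and HIGD2A (-0.29) fell. Of 19 tested genes of mitochondrial protein import, 2 were higher, TOMM7 (0.55) and TIMM9 (0.52), and 7 lower, led by TIMM22 (-0.83) and TIMM10 (-0.78), with a median of -0.09.

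A list of genes known to switch respiration in low oxygen went the other way in its counts, with 7 of 11 tested genes higher and 1 lower and a median of 0.38. PDK1, which inhibits pyruvate dehydrogenase, rose from 12.9, 13.1 and 14.98 to 27.3, 31.6 and 28.5 CPM (1.09, standard error 0.09), and NDUFA4L2 from the same list is described above. The mitophagy receptor FUNDC1 (0.24) rose and COX4I1, as described above, fell. FUNDC1 was at -0.09 and did not pass after removal of the GC and length trend. The median GC content of the 11 genes was 43.5%. In the tenth of all genes tested with a GC content of 41.2% to 43.5% the median log2 fold change was 0.30. The part of GC content in the values of this list was not tested.

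**Figure D5:**
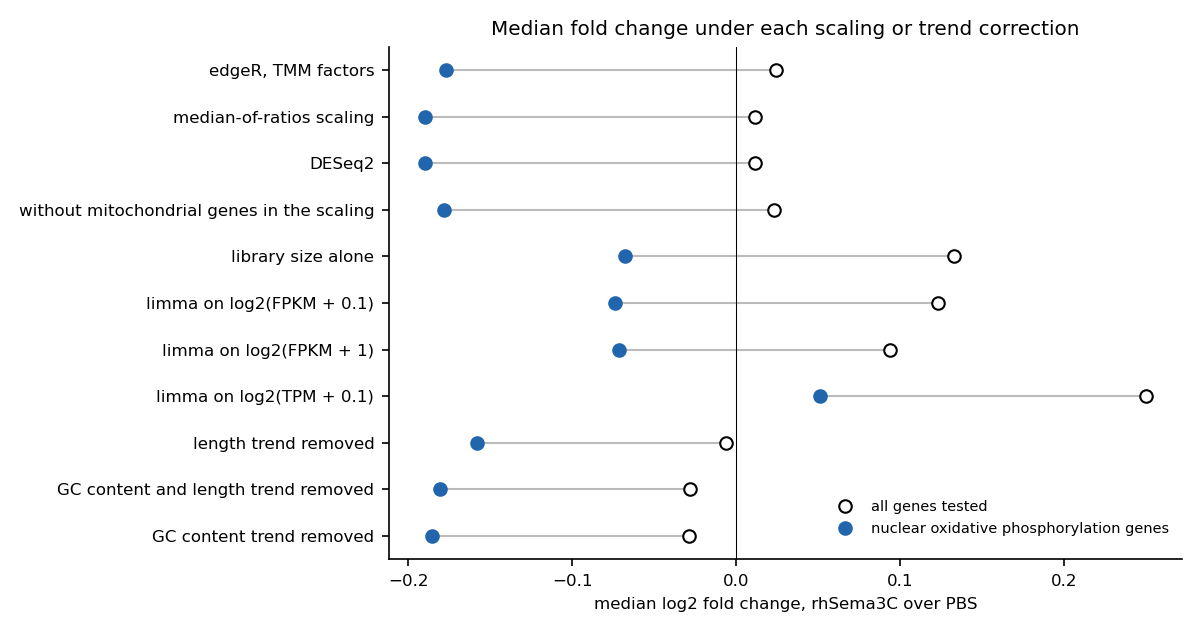
Median log2 fold change (x axis) of the 86 nuclear oxidative phosphorylation genes (filled) and of all genes tested (open) under the main fit and 10 other scalings, tests or trend corrections (rows). The filled point is left of the open one in each row, and it lies above 0 with TPM alone.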

How the data were processed

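RNA sequencing covered 3 rhSema3C and 3 PBS samples, with groups, replicate numbers, dose and time taken from the labels. Per gene, the table that the authors deposited gives raw counts and, beside them, FPKM. Counts and FPKM together imply a length that is longer than the longest transcript for most of the 92 genes, so FPKM depends on a merged gene model. The methods name Cufflinks and cuffmerge, and the aligner, strand setting and genome build are not given in the sources used here. All 92 genes overlapped their GENCODE 29 entry on GRCh38. No sample column was left unused.

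From the deposited counts, edgeR 4.0.16 (R 4.3.3) was run with TMM factors and the quasi-likelihood test on the 14178 genes whose mean FPKM reached 0.5, with Benjamini-Hochberg adjustment over all of them. CPM values are TMM-scaled. Standard errors are the log2 fold change over the square root of F. A second rule was a fold change above 2 with a p below 0.05. Alternatives used DESeq2 1.42.0 and limma 3.58.1 (pseudocounts 0.1 and 1), other scalings and filters, a replicate block, each sample left out, and trend removal. The trends were splines with 4 degrees of freedom. They used the GC content of the longest GENCODE 29 transcript and the log2 of the length that counts and FPKM imply. DESeq2, edgeR and limma fits were tested on simulated data. Python 3.11.15, pandas 2.3.3 and matplotlib 3.10.9 were used.

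Counting noise alone would give a chi-square of about its degrees of freedom between replicates; it was 13.5 to 22.1 times that. Without molecular identifiers, counts are not molecules. Of the 92 genes 55 overlap another gene of the table and 32 have named pseudogenes in it. Overlapping genes held 279% as many counts as NDUFS3, 98.6% as many as COX15 and 93.0% as many as COX6C. They held 76.7% as many as COX10 and 75.05% as many as ATP5PD. With the strand setting unknown, the part of such neighbours in the values was not tested. Of the 33 tested genes that overlap no other gene, 17 were lower and 7 higher, with a median of -0.18. The genes and lists were chosen with earlier results of these data known. Genes were named if they were core subunits or isoforms of a pair, among the 3 highest or lowest of a complex (all SDH genes; the COX genes counted as 1 group), past the second rule, at or under 3 counts in a group, or the 2 highest and 2 lowest called genes of another list. COX15, COX10, KCTD14, SHMT2, NRF1, GABPB1, GABPA, YY1 and the cell type markers other than the listed extremes were named after their values were seen. The values of 1 tested gene are not reported here, and it stays in the counts and medians.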

Additional observations from a re-analysis of the deposited data

How the results depend on the processing

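With limma on log2(TPM + 0.1), 34 of the genes were higher and 21 lower, with a median of 0.0507, and among the background of all genes higher and all genes lower 6902 were higher and 2423 lower. That scaling moved the median of all genes to 0.25, and these genes were 0.20 below it. With it, 61.8% of the calls among these genes and 74.0% of those among all genes were rises, against 33.3% and 50.9% in the main fit; with library size alone the shares were 46.0% and 62.3%, and with limma on log2(FPKM + 1) 43.9% and 61.3%. The median was -0.068 with library size alone, -0.0717 with limma on log2(FPKM + 1), -0.0739 with limma on log2(FPKM + 0.1) and -0.115 among the 73 genes whose mean FPKM reached 5, a filter under which 2630 of 6971 genes were higher and 2602 lower. With the GC content and length trend removed 11 genes were higher and 49 lower, and with the GC content trend alone removed, an alternative chosen after seeing the data, 9 were higher and 46 lower. Without any filter 14 were higher and 41 lower, and DESeq2 gave 19 and 45. With one sample left out, 16 to 18 genes were higher and 40 to 42 lower, the medians ran from -0.19 to -0.15, and 52 of the 63 called genes kept their call in each case.

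The replicate numbers did not pair the samples, since same-numbered samples correlated at -0.004, 0.058 and -0.027 in their deviations from the group means and not every sample correlated best with its own number. With the replicate block 16 genes were higher and 40 lower, against 21 and 42 without it, and the count of all genes higher was 4221 and of all genes lower 4120.

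Single genes whose direction changed did so under TPM for ATP5F1A (0.0509), COX6A1 (0.0369), COX7A2 (0.0514) and COX7A2L (0.11). With the GC content and length trend and with the GC content trend alone removed, the values were -0.0147 and -0.0323 for ATP5F1E, -0.12 and -0.12 for COX7C, -0.11 and -0.12 for CYCS, -0.0947 and -0.0793 for FUNDC1, -0.29 and -0.31 for NDUFA4, -0.0782 and -0.0545 for NDUFS1, -0.18 and -0.19 for NDUFV2, -0.11 and -0.13 for PPA1 and -0.16 and -0.17 for SDHD, and UQCRB was -0.0134 with both removed. NDUFA4, close to 0 in the main fit, was also -0.003 with median-of-ratios scaling, -0.003 with DESeq2, -0.002 without a filter, -0.059 without PBS replicate 2 and -0.03 without rhSema3C replicate 3, with a range of -0.059 to 0.0784 (without PBS replicate 3) when one sample was left out. Of the 81 named genes with a fit, 46 were called in the same direction in the main fit and in every alternative that tested them. Depth limits the low genes most, and NDUFA4L2, ATP5ME and NDUFB1 had the smallest counts of the 86 genes. For the 6 isoform ratios, leaving out each sample in turn, an alternative chosen after seeing the data, changed no direction; the difference for NDUFC2-KCTD14 over NDUFC2 ran from -1.27 to -0.44.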

Other observations

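The vacuolar ATPase genes carry the same KEGG entry and were left out above. They build the proton pump that acidifies lysosomes and endosomes and are no part of the respiratory chain. Of 19 tested, 12 were lower and 2 higher at an adjusted p below 0.05, with a median of -0.26, beside 30.6% lower and 31.7% higher among all genes tested. The genes of the membrane part (V0) that fell included ATP6V0D1 from 232, 244 and 235 to 121, 113 and 128 CPM (-0.97, standard error 0.05), ATP6V0E2 (-0.97) and ATP6V0C (-0.62), which forms the proteolipid ring. ATP6V0A4 had 6.60, 6.56 and 5.70 CPM in PBS and 2.88, 2.78 and 1.72 in rhSema3C samples (-1.35). Of the cytosolic part (V1), ATP6V1F (-0.33), ATP6V1B2 (-0.30) and ATP6V1H (-0.26) fell, while ATP6V1E1 (0.37) and ATP6V1G1 (0.36) rose. These calls and values are from TMM scaling alone, and those under other scalings or after trend removal are not given for these genes. The median of all genes tested was 0.02 with TMM and 0.25 with TPM. These genes were named after their values were seen.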
